A study of Homo sapiens with 2 samples.

Results

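Cells of K562, a long-established line from a human chronic myeloid leukaemia with erythroid features, were compared after 6 h with JQ1 and after 6 h with A485. JQ1 occupies the bromodomains of the BET proteins, such as BRD2, the readers that bind acetylated lysine on histones. A485 blocks the catalytic site of CBP and p300, paralogous acetyltransferases that write such marks at enhancers and promoters. The comparison therefore sets loss of reading against loss of writing, and asks which mRNAs differ between the 2 states. The members are all wells that the deposited well annotation names JQ1 (6 wells) or A485 (6 wells), of 192 wells on 2 plates that hold 74 named treatments besides DMSO, the vehicle. The 24 DMSO wells entered the same fit. All groups are the same K562 line, cultured alike and treated for 6 h, and the labels name no allele or transgene. Doses are not given in the labels, so the compounds are compared at whatever dose was used, and nothing here says that the doses were matched in effect.

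BET proteins recruit the elongation kinase P-TEFb and the Mediator complex to acetylated chromatin, and JQ1 displaces them from it. CBP and p300 are recruited by transcription factors such as GATA1, STAT5, CREB and AP-1, and acetylate histones around the sites that these factors bind. In erythroid cells both kinds of protein lie at the enhancers of the genes for GATA1, KLF1 and their targets.

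RNA was measured by MAC-seq, a 3′ mRNA method in which each well receives its own barcode at reverse transcription and all wells of a plate become 1 library. JQ1 occupied wells 22, 49 and 61 and A485 wells 33, 25 and 37 of both plates, and for each compound the last 2 positions lie in the first plate column. First-column wells were shallower, with 224480 to 291109 human counts for JQ1 and 249559 to 319052 for A485, against 743691 and 1009180 for JQ1 and 756279 and 903203 for A485 outside it. The first-column term was called for 3336 of 7695 genes (43.4%) and the plate term for 789 (10.3%), so both stand in the fit, and the compounds are balanced for both. The series' text calls the duplicates technical, and nothing says that the positions were separate cultures, so p-values measure the spread between wells, which may be technical. Counts of the same position on the 2 plates differed beyond sampling noise (chi-square over its degrees of freedom between 1.14 and 1.49), and no pair was identical. Values per well below are counts scaled to library size by TMM (CPM), in the order well 22, 49 and 61 for JQ1 and well 33, 25 and 37 for A485, plate 1 before plate 2. A single count was worth 1.14 to 4.63 CPM in the JQ1 wells and 1.17 to 3.85 CPM in the A485 wells.

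Markers of the line were present in every well. The 12 erythroleukaemia markers summed to 25716 to 31233 CPM in JQ1 wells and 24192 to 27997 CPM in A485 wells. Of 12 megakaryocytic markers 8 were at 0 in all 12 wells, ITGB3, GP9 and PPBP among them, and their sum was at most 8.01 CPM. Monocytic and granulocytic markers summed to 13.4 to 33.2 CPM and lymphoid markers to 44.5 to 86.8 CPM.

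Of 7695 genes tested with edgeR's quasi-likelihood test and Benjamini-Hochberg adjustment, 1479 (19.2%) differed between the compounds at an adjusted p under 0.05. JQ1 wells were higher for 737 genes (9.58%) and lower for 742 (9.64%). The higher genes changed less and lay at higher levels: their median log2 fold change was 0.54, 152 reached 1, and 616 had a mean log2 CPM of at least 5. The lower genes had a median of -0.95, 335 reached -1, and 352 had that level. JQ1 and A485 wells did not overlap at all for 393 genes (5.11%), 204 with JQ1 above (2.65%) and 189 with JQ1 below (2.46%). Leaving out the position outside the first column, whose wells are the deepest, moved the counts most: 475 higher and 378 lower without JQ1 well 22, and 475 and 401 without A485 well 33. The balance of the directions depends on scaling. With library size alone 386 genes were higher and 1169 lower (24.8% of the calls higher in place of 49.8%), and with ERCC spike-in counts as the scale 208 and 1352 (13.3%), where the median of all genes moved to -0.13 and -0.25. Of the 1479 genes, 1128 kept the call with library size alone and 950 on the ERCC scale, where 115 changed sign. No gene called here was called in the opposite direction under any alternative that was run.

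**Figure D1:**
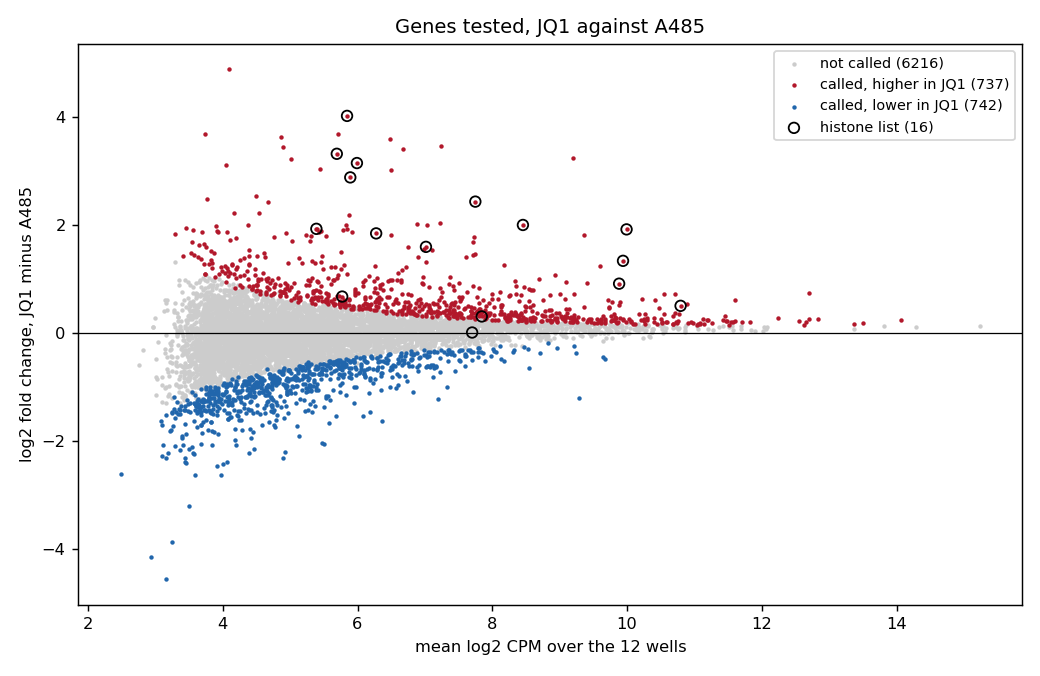
Log2 fold change of JQ1 minus A485 (y axis) against the mean log2 CPM of the 12 wells (x axis) for the 7695 genes tested, coloured by call at an adjusted p under 0.05, with the 16 tested histone genes circled. Of the circled genes, 15 lie above 0 in the called set, up to 4.02 for H3C4.

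The histone genes differed more than any other list examined, by the median of its members. Of 16 tested histone genes 15 were higher in JQ1 wells and 0 lower, with a median log2 fold change of 1.88 against 0.00035 over all genes tested, and 12 of the 15 had no overlap between the compounds. The called members are core and linker histones that are made as DNA is copied (H3C4, H4C8, H2AC6, H2BC11, H1-2) and also variants made outside S phase (H3-3A, H3-3B, H2AZ1, H2AZ2, H1-10). The remaining member, H4C3, had a log2 fold change of 0.0076. The list's median stayed between 1.62 and 1.88 under the other scalings, with 12 to 15 members called. Histone genes are near-identical copies, and reads can be shared between them, so values of single members are uncertain. Replication-dependent histone mRNAs end in a stem-loop and most carry no poly(A) tail, so a 3′ mRNA method may see only part of them.

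The promoters of 4 strongly differing genes of the chromosome 6 histone clusters are shown as examples, and their windows do not overlap each other. The windows of H2AC6 and H2BC11 overlap, on the opposite strand, those of H2BC4 and H2AC11 respectively, which are not printed. H2AC6, H2BC11, H2BC4 and H2AC11 were all called higher in JQ1. Each line gives the bases just upstream of the start site, 5′ to 3′ on the gene's strand, from RefSeq on GRCh38.p14, with CCAAT and TATAAA, or their reverse complements ATTGG and TTTATA, in capitals.
H2AC6: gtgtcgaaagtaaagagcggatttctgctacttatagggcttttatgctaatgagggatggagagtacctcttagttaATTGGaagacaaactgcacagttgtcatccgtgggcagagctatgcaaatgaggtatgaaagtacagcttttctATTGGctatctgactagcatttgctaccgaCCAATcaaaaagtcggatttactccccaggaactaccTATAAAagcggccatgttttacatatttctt
H2BC11: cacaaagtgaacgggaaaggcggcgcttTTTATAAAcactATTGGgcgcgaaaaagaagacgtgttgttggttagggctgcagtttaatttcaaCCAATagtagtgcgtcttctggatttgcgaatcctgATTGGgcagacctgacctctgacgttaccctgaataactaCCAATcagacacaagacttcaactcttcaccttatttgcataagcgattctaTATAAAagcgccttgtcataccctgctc
H3C4: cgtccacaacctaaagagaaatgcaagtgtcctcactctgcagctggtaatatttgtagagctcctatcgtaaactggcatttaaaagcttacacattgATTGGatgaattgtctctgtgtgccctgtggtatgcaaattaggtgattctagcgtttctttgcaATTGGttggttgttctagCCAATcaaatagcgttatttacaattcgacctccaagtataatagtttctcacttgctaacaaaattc
H1-2: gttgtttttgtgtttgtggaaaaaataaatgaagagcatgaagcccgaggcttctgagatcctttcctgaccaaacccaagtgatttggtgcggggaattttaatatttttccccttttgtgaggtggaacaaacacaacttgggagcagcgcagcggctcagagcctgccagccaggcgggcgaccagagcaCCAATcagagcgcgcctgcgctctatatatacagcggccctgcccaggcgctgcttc
These windows lie at chr6:26123922-26124171 (plus strand), chr6:27132796-27133045 (minus), chr6:26199294-26199543 (minus) and chr6:26056471-26056720 (minus). CCAAT and TATAAA were searched on both strands, and matches may overlap. CCAAT was present in the 250 bases upstream of 13 of the 15 called list members (86.7%), against 32% of 35116 promoters in the RefSeq table and 37.7% of the 5296 promoters of tested genes. TATAAA was present in 10 of 15 (66.7%), against 10.7% and 4.97%. Both counts include H2AC6 and H2BC4 as separate promoters, although their windows are nearly the same bases. Only called members of the list were counted. H4C8 held neither within its window. These matches describe letters only.

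H3C4 (ENSG00000197409), a core histone H3 gene, stood at 191, 219, 195, 209, 191 and 231 CPM in the JQ1 wells. The A485 wells held 11.7, 12.3, 12.6, 21.4, 10.6 and 7.70 CPM, and DMSO wells 6.29 to 34.4 CPM (median 14.8). Every JQ1 well was far above every A485 and DMSO well, with a log2 fold change against A485 of 4.02 (standard error 0.19, edgeR adjusted p = 2.15e-38). H1-2 (ENSG00000187837), a linker histone, counted 2106, 2157, 1986, 2032, 1909 and 1827 CPM with JQ1 and 628, 623, 524, 411, 539 and 408 CPM with A485, where DMSO ranged over 543 to 836 CPM (median 694). Its log2 fold change was 1.92 (standard error 0.062, edgeR adjusted p = 3.3e-53), one of the smallest p-values among genes with a symbol. H2AC6 (ENSG00000180573) read 489.8, 516, 491, 586, 493 and 467 CPM with JQ1 against 109, 99.7, 100.5, 64.3, 95.2 and 65.5 CPM with A485 (DMSO 82.9 to 187 CPM (median 151)). For H2AC6 the compounds lay on opposite sides of DMSO: JQ1 was higher by 1.77 and A485 lower by 0.66 on the log2 scale, both called. For H1-2 too A485 was below DMSO (-0.31), while H3C4 in A485 wells did not pass the test against DMSO (-0.30, edgeR adjusted p = 0.608). Over the list, JQ1 was called higher than DMSO for 15 genes and A485 lower for 4. H2BC21, H4C8, H2BC5, H3C14 and H2AC11 had log2 fold changes of 3.31, 3.14, 2.88, 3.03 and 2.18 against A485, again with no overlap, the last 2 of these being histone genes outside the list. The gene with the smallest p of all, ENSG00000183558, carries no symbol in the tables used and had a log2 fold change of 3.23 (1375 to 2216 CPM with JQ1, 131 to 215 CPM with A485).

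Genes that serve histone supply and S phase moved beside them in part. RRM2, the small subunit of ribonucleotide reductase, stood at 324, 354, 365, 361, 269 and 426 CPM with JQ1 and 131, 112, 116, 114, 152 and 146 CPM with A485, a log2 fold change of 1.45 (standard error 0.097, edgeR adjusted p = 6.25e-26). SLBP, which binds the stem-loop of histone mRNA, was higher by 0.71, CDC6 by 0.54, TK1 by 0.46 (not called on the ERCC scale or without JQ1 well 22) and PCNA by 0.38. The helicase subunits MCM2 (-0.94) and MCM5 (-0.83), the clamp loader RFC4 (-0.77), RRM1 (-0.50) and CDC45 (-0.31) were lower. Of 26 replication genes tested, 5 were thus higher and 5 lower, with a median of -0.053. With library size alone 4 were higher and 6 lower (median -0.19), and on the ERCC scale 2 and 6 (-0.30).

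**Figure D2:**
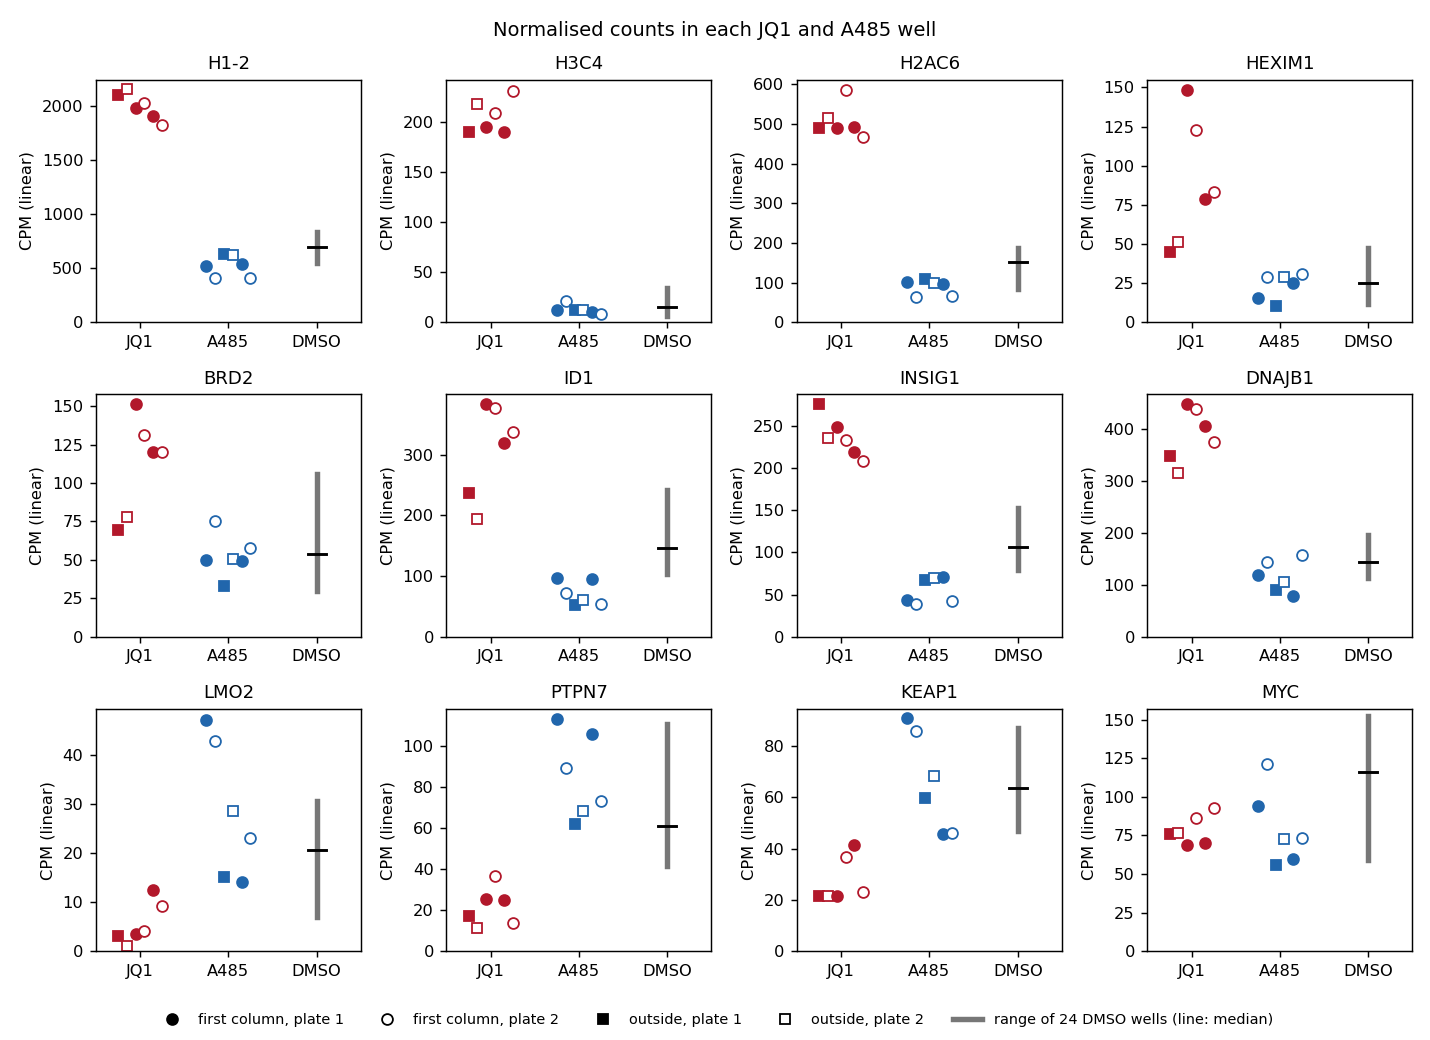
Normalised counts (CPM, linear axis) of 12 genes in each JQ1 and A485 well, circles for first-column wells and squares for wells outside it, filled for plate 1 and open for plate 2, with a grey bar for the range and a line for the median of 24 DMSO wells. The H3C4 values lie at 191 to 231 CPM with JQ1 and 7.70 to 21.4 CPM with A485, while the MYC values overlap.

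Of the BET and elongation machinery, HEXIM1 and BRD2 were higher in JQ1. HEXIM1, an inhibitory subunit of the P-TEFb complex and a widely used response marker of BET inhibitors, stood at 44.9, 51.5, 148, 123, 78.7 and 83.3 CPM with JQ1 and 10.5, 28.7, 15.7, 28.6, 24.7 and 30.8 CPM with A485 (DMSO 11.8 to 47.2 CPM (median 25.3)). All JQ1 wells lay above all A485 wells. Well 22 was the lowest of its group, below the highest DMSO well on plate 1 and above it on plate 2, while the first-column wells were far above it. The log2 fold change was 1.79 (standard error 0.22, edgeR adjusted p = 5.82e-11), with 1.40 for JQ1 against DMSO (called) and -0.39 for A485 (not called, edgeR adjusted p = 0.346). Of 18 elongation genes tested only PAF1 was called besides with TMM scaling, lower by 0.80 (4 genes were lower with library size alone and 4 on the ERCC scale), and that call was lost without JQ1 well 22 or A485 well 33 and with no filter on low counts. BRD2, a JQ1 target itself, read 69.7, 77.8, 152, 131, 120.1 and 120.3 CPM with JQ1 and 32.8, 50.5, 50.2, 75.0, 49.4 and 57.8 CPM with A485. JQ1 well 22 on plate 1 lay below the highest A485 well, so the groups overlapped, at a log2 fold change of 1.02 (standard error 0.18, edgeR adjusted p = 2.25e-06). Among 6 tested acetyltransferases and CBP/p300 partners, CITED2, which binds CBP and p300, was higher by 0.96, and the acetyltransferases KAT2A and KAT5 were lower by 1.00 and 0.95. KAT5 lost its call without A485 well 33.

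Many signal-responsive genes were higher in JQ1 wells than in A485 wells. Of 16 immediate early and AP-1 genes tested, 10 were higher in JQ1 and 0 lower. The median was 1.01, and 0.77 to 1.01 under the other scalings with 9 or 10 called. A485 was called below DMSO for 5 of the 16, and JQ1 above it for 8 and below it for 3. Over all genes these shares were 3.46%, 12.1% and 11.6%. IER2, an immediate early gene, stood at 144, 130.5, 191, 148, 186 and 199 CPM with JQ1 and 48.0, 32.8, 65.9, 32.1, 45.8 and 50.1 CPM with A485 (DMSO 49.9 to 93.3 CPM (median 69.6)). It was called on both sides of DMSO, at 1.14 for JQ1 and -0.67 for A485, and 1.81 between them (standard error 0.15, edgeR adjusted p = 3.99e-20). GADD45A, a stress and growth arrest gene, had 1.79 between the compounds, JUND, an AP-1 subunit, 1.50, and JUNB, another, 1.21. Further called members were IER5 (1.41), IER3 (1.26), BTG1 (1.22), MCL1 (1.09), ZFP36 (0.93) and ZFP36L2 (0.75). Calls of IER3 and BTG1 were lost without A485 well 33, that of IER3 also without JQ1 well 49, and that of ZFP36L2 without JQ1 well 22 or on the ERCC scale. The call of IER5 was not followed through the alternatives. FOSL1 (-0.96), HES1 (-0.67) and DUSP1 (0.15) were not called.

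The ID genes, inhibitors of basic helix-loop-helix factors and classic targets of BMP signalling, were also higher in JQ1. ID1 read 237, 195, 383, 377, 319 and 338 CPM with JQ1, 52.6, 60.1, 97.3, 71.4, 95.2 and 53.9 CPM with A485 and 104 to 242 CPM (median 146) in DMSO wells. All JQ1 wells lay above all A485 wells, the lowest JQ1 values being those of well 22. JQ1 minus A485 was 2.04 (standard error 0.12, edgeR adjusted p = 2.59e-30), with 0.74 for JQ1 and -1.30 for A485 against DMSO. ID3 was higher by 1.90 and BAMBI by 1.01, the latter not called on the ERCC scale, while TGIF1, a repressor of TGF-beta and SMAD targets, was lower by 1.11. ID3 read 0 to 6.83 CPM in A485 wells, where a few counts set the value. Its call was lost with wells outside the first column only and with plate 2 only. All 4 genes tested were thus called.

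Genes of the STAT5 pathway, which the BCR-ABL kinase of K562 keeps active, were called higher in part. Of 15 tested, STAT5A, STAT5B and ABL1 among them, 6 were higher in JQ1 and 1 lower, and the list's median of 0.13 became -0.0016 with library size alone and -0.098 on the ERCC scale, where 5 were higher and 4 lower. PIM1, a serine/threonine kinase, stood at 118, 103, 123, 131, 137 and 139 CPM with JQ1 and 38.6, 49.2, 135, 67.9, 59.9 and 53.9 CPM with A485 (DMSO 107 to 206 CPM (median 153)). A485 well 25 on plate 1 reached the JQ1 range, and both compounds were below DMSO, by 0.39 for JQ1 and 1.37 for A485. PIM2 was higher by 0.97, SOCS1 by 1.75, SOCS3 by 1.68 and CCND2, a D cyclin, by 1.10, whose call was lost on the ERCC scale and without JQ1 well 49 or A485 well 33. The 1 lower gene was STAT5A, the factor itself, by 1.01. CISH, SOCS2 and BCL2L1 did not pass (0.076, -0.43 and -0.44). MCL1, an anti-apoptotic BCL2 family member that also counts among the immediate early genes here, read 55.8, 69.8, 90.3, 94.2, 87.0 and 83.3 CPM with JQ1 and 30.4, 27.3, 50.2, 50.0, 28.2 and 38.5 CPM with A485, with no overlap. Within that family BCL2L11, a pro-apoptotic member, was higher by 1.65 and the pro-apoptotic BAK1, BAD and BAX lower by 1.19, 0.53 and 0.56 on the log2 scale. BAK1 lost its call without JQ1 well 22 or A485 well 33, and BAD without JQ1 well 22 or A485 well 37. The calls of BAX, SOCS1 and SOCS3 were not followed gene by gene through the alternatives.

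Of 24 tested genes of cholesterol synthesis and uptake 9 were higher in JQ1 and 0 lower, with a median of 0.30 (0.044 on the ERCC scale, with 2 higher and 1 lower). INSIG1, which holds the sterol sensor in the endoplasmic reticulum, stood at 276, 236, 249, 234, 219.5 and 208 CPM with JQ1 and 67.8, 69.6, 44.0, 39.3, 70.5 and 42.4 CPM with A485. DMSO wells lay between, at 78.6 to 153 CPM (median 106), and no well of one compound reached the other. The log2 fold change was 2.02 (standard error 0.12, edgeR adjusted p = 3.3e-29), from 1.21 and -0.81 against DMSO. IDI1, an isomerase of the pathway, was higher by 1.40, SREBF1 by 0.75 and FASN, fatty acid synthase, by 0.53, the last not called on the ERCC scale. SQLE (0.49) did not pass. Over the list, A485 was called below DMSO for 10 genes and JQ1 for 4, and JQ1 above it for 3, where all genes gave 3.46%, 11.6% and 12.1%.

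Heat shock genes moved in part. Of 15 tested, 7 were higher in JQ1 and 0 lower, while the list's median of 0.20 became -0.059 on the ERCC scale, with 5 higher and 1 lower. DNAJB1, a co-chaperone of HSP70, read 347, 316, 448, 438, 406 and 375 CPM with JQ1 against 88.9, 105, 119, 143, 77.6 and 158 CPM with A485 (DMSO 113 to 196 CPM (median 144)), a log2 fold change of 1.77 (standard error 0.10, edgeR adjusted p = 5.05e-31). HSPA8, the constitutive HSP70, stood at 1293, 1244, 1062, 1332, 969 and 1212 CPM and 535, 541, 468, 497, 518 and 466 CPM, and differed by 1.23. HSPA1A and HSPA1B, near-identical inducible copies that can share reads, differed by 1.11 and 1.32. HSPD1 (0.041), HSPE1 (0.20), HSPH1 (0.024) and HSPB1 (0.091) were not called.

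Sugar and iron genes followed. In glycolysis 9 of 17 tested genes were higher and 1 lower (PFKL, -0.43), and the median of 0.25 became -0.018 on the ERCC scale with 4 higher and 2 lower. SLC2A1, the main glucose transporter, read 63.5, 76.7, 86.7, 164, 41.4 and 102 CPM with JQ1 and 17.5, 32.8, 18.8, 21.4, 24.7 and 7.70 CPM with A485, with 0.52 and -1.37 against DMSO and 1.88 between the compounds. Among iron genes FTL and FTH1, the ferritin chains, differed by 0.74 and 0.72, and TFRC, the transferrin receptor, by 0.91. FTL counted 8011, 8291, 8413, 9051, 8524 and 9214 CPM with JQ1 and 5138, 4904, 5456, 4876, 5419.6 and 4992 CPM with A485, so a modest difference came with no overlap. Of 17 haem and iron genes 4 were higher and 0 lower, with a median of 0.086 (3 and 0 on the ERCC scale, median -0.15). DDIT4, induced by hypoxia and stress, was higher by 1.30, and here JQ1 was not called against DMSO (-0.15) while A485 was (-1.45). In the list of ATF4 and unfolded protein stress with 20 tested genes, 5 were higher and 2 lower (2 and 3 on the ERCC scale). Of these genes PPP1R15A was higher by 1.70 and TRIB3 lower by 1.73. TRIB3, a pseudokinase induced by ATF4, read 23.2, 16.0, 18.1, 24.6, 12.4 and 4.63 CPM with JQ1 and 59.7, 46.4, 59.6, 71.4, 56.4 and 69.3 CPM with A485, whose values lay in the DMSO range.

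Of the erythroid regulators, more were called against DMSO for each compound than between the compounds. Of 16 tested, 9 were called below DMSO and 1 above it in JQ1 wells, and 9 below it in A485 wells, comparisons that share the DMSO wells. Over all genes 11.6% were lower with JQ1 and 3.46% with A485. Between the compounds 2 were higher and 4 lower in JQ1 than in A485 (median 0.089, and -0.044 and -0.16 with library size and ERCC scaling). GATA1, the master factor of the lineage, stood at 139, 116, 181, 176, 228 and 204 CPM with JQ1 and 102, 139, 201, 193, 155 and 173 CPM with A485, below the DMSO median of 269.8 CPM. Between the compounds it differed by 0.088 (standard error 0.12, edgeR adjusted p = 0.665). KLF1, an erythroid activator, read 41.8, 51.5, 39.7, 41.0, 33.1 and 13.9 CPM and 42.1, 46.4, 69.1, 42.9, 31.7 and 53.9 CPM, against DMSO wells at 89.8 to 189 CPM (median 133). It was lower than DMSO by 1.72 with JQ1 and by 1.53 with A485, and the direct difference was -0.20 (standard error 0.20, edgeR adjusted p = 0.548). GFI1B (0.21, standard error 0.31), MYB (-0.36, 0.28) and MYC (0.050, 0.16) did not pass either, and a p that misses the threshold does not show that the compounds act alike on them.

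The largest fitted difference on the list was that of LMO2, the bridging subunit of the GATA1 and TAL1 complex. It stood at 3.10, 1.14, 3.61, 4.10, 12.4 and 9.25 CPM with JQ1 and 15.2, 28.7, 47.1, 42.9, 14.1 and 23.1 CPM with A485 (DMSO 7.07 to 30.6 CPM (median 20.6)). The highest JQ1 well lay below the lowest A485 well, at a log2 fold change of -2.64 (standard error 0.39, edgeR adjusted p = 4.13e-08), and A485 did not differ from DMSO by the test (0.27, edgeR adjusted p = 0.552). A single count was worth 1.14 to 4.63 CPM in JQ1 wells, so a few counts set the LMO2 values there and the size is uncertain. HEMGN, an erythroid nuclear protein, was lower by 1.62, a call lost without JQ1 well 22. NFE2 and TAL1 were lower by 0.60 and 1.01, and these calls were lost in several alternatives, among them summing both plates per position. Higher in JQ1 were HHEX (0.95) and GATA2 (1.33), the GATA factor of earlier progenitors. HHEX read 126, 125, 155, 119, 120.1 and 171 CPM with JQ1 and 62.0, 64.2, 75.3, 57.2, 106 and 61.6 CPM with A485, and GATA2 40.3, 45.8, 75.8, 49.2, 87.0 and 55.5 CPM and 16.4, 16.4, 22.0, 35.7, 28.2 and 23.1 CPM, without overlap for either.

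Products of the erythroid programme differed little. Of 20 globin and red cell genes tested 9 were higher in JQ1 and 0 lower, with a median of 0.26, and on the ERCC scale the median was -0.000026 with 1 called in each direction. HBG1 and HBG2, the near-identical gamma-globin genes, differed by 0.27 and 0.24 (HBG2 by -0.0084 on the ERCC scale), within overlapping well values of 7383 to 9373 CPM with JQ1 and 5933 to 7586 CPM with A485 for HBG1. HBZ did not pass (0.077). KEL, a red cell surface protein, was higher by 0.98. The mitochondrially encoded mRNAs were another group of abundant RNAs with small differences: 6 of 13 were higher, with a median of 0.17, and on the ERCC scale 0 were called and the median was -0.12. Human counts per ERCC count, on the log2 scale, were 2.00 ± 0.351 (SD, n = 3 positions) with JQ1 and 2.15 ± 0.195 with A485, a difference of -0.15 with an exact permutation p of 0.6, two-sided, where 3 against 3 cannot go below 0.1. Fewer cells and less RNA per cell cannot be told apart by this ratio.

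**Figure D3:**
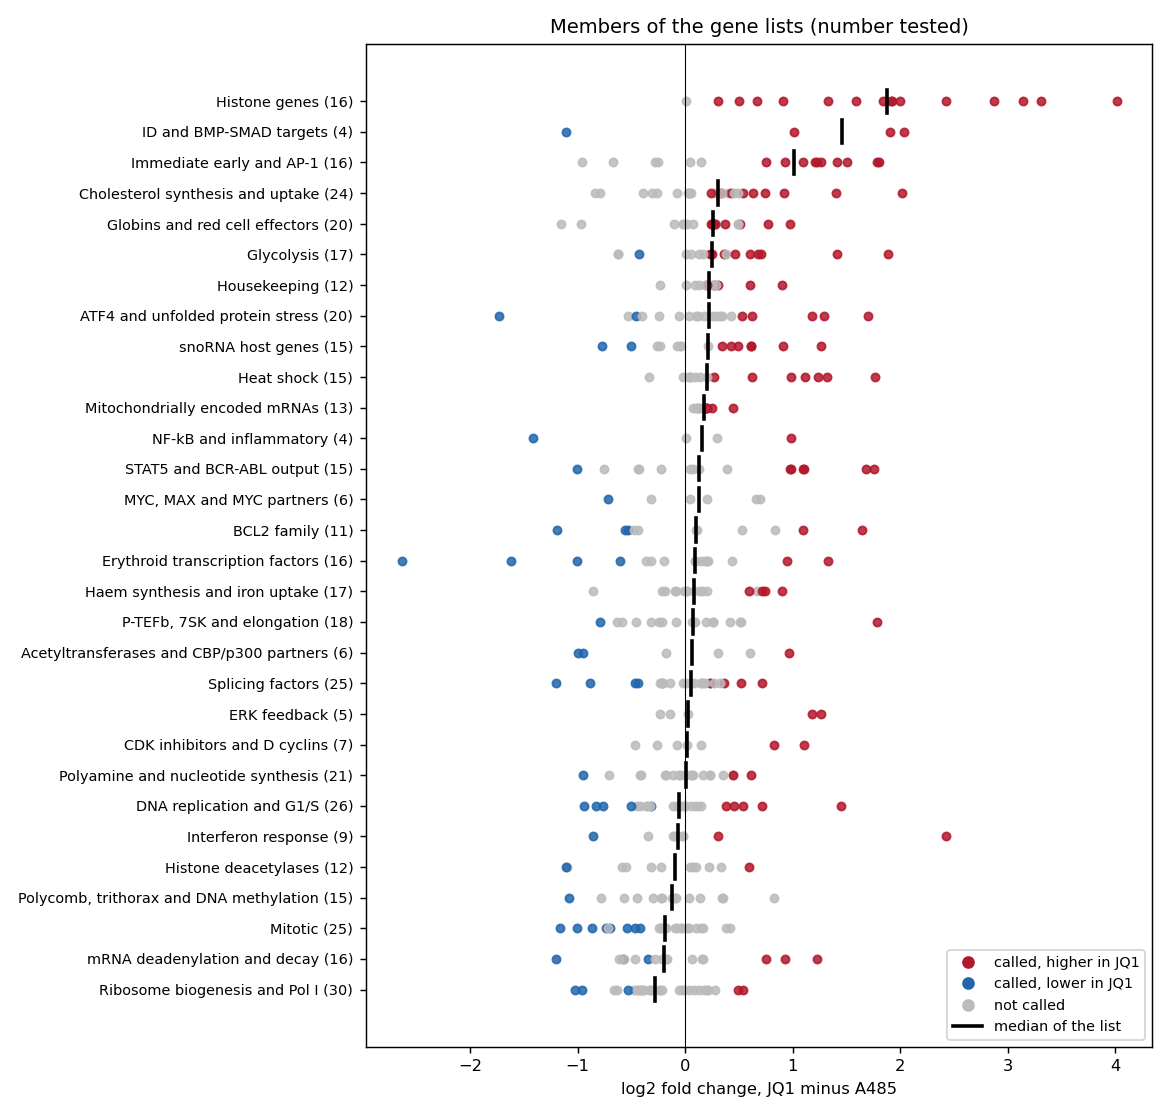
Log2 fold change of JQ1 minus A485 (x axis) of every tested member of the gene lists with at least 4 tested members, sorted by the list's median (black line), coloured where called. The histone list has its median at 1.88 and the ribosome biogenesis list at -0.28.

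Mitotic genes had calls only in the direction of lower in JQ1, also under the other scalings. Of 25 tested, 0 were higher and 8 lower in JQ1 (PLK1, CCNB1, CCNB2, CDC25C, AURKA, CENPA, BUB1B and CCNA2), with a median of -0.19 that was -0.32 with library size alone and -0.43 on the ERCC scale. PLK1, a mitotic kinase, read 62.0, 77.8, 43.3, 81.9, 29.0 and 78.6 CPM with JQ1 and 116, 157, 84.8, 161, 106 and 150.2 CPM with A485, with DMSO at 81.4 to 125 CPM (median 100.1). Every A485 well was above every JQ1 well, and on the log2 scale JQ1 was lower by 1.00 (standard error 0.14, edgeR adjusted p = 8.91e-09). Here the compounds lay on either side of DMSO, JQ1 at -0.64 and A485 at 0.36, both called. CCNB1 and CCNB2, the B cyclins, were lower by 0.42 and 0.54 and were called against DMSO only for A485, at 0.34 and 0.51. Without A485 well 33 the calls of CCNB1, CCNB2 and CDC25C were lost, those of the last 2 also without JQ1 well 22. AURKA, CENPA, BUB1B and CCNA2 were not followed gene by gene through the alternatives. CDC20 (0.16), BIRC5 (-0.18), TOP2A (-0.035) and CDK1 (-0.075) did not pass.

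Other genes lower in JQ1 belonged to no single list. PTPN7, a phosphatase of blood cells that acts on MAP kinases, stood at 17.0, 11.4, 25.3, 36.9, 24.9 and 13.9 CPM with JQ1 and 62.0, 68.3, 113, 89.3, 106 and 73.2 CPM with A485 (DMSO 41.5 to 111 CPM (median 61.1)). No JQ1 well reached an A485 or DMSO well, and the log2 fold change was -2.06 (standard error 0.22, edgeR adjusted p = 6.54e-14). KEAP1, the adaptor that targets NRF2 for degradation, read 21.7, 21.7, 21.7, 36.9, 41.4 and 23.1 CPM and 59.7, 68.3, 91.0, 85.7, 45.8 and 46.2 CPM, a difference of -1.37, with JQ1 at -1.36 and A485 at 0.013 against DMSO. PSMG3, a proteasome assembly chaperone, read 80.6, 89.3, 108, 98.3, 120.1 and 69.4 CPM and 209, 213, 226, 261, 222 and 177 CPM and differed by -1.23. SPC24, a kinetochore subunit, was lower by 1.62, STX10, a SNARE of the Golgi, by 1.46, GEMIN6, of the SMN complex, by 1.36, LZTR1, an adaptor that targets RAS proteins, by 1.53, TRMT2A, a tRNA methyltransferase, by 1.00 and HNRNPDL, an RNA-binding protein, by 0.65. C1orf56 (-2.03), CNOT9 (-1.90) and LRRC75A (-1.66) were lower as well, DMSO wells of C1orf56 and LRRC75A spanned 5.46 to 129 and 6.50 to 81.2 CPM, and the LRRC75A call was lost without A485 well 33. CNOT9 is a subunit of the CCR4-NOT deadenylase, and CNOT3, CNOT2 and CNOT1 of the same complex were lower too, by 1.20, 0.58 and 0.34 on the log2 scale. These 3 were the lower genes among 16 tested decay genes, and ZFP36, ZFP36L2 and BTG1 the higher ones.

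Further genes outside the histones that were higher in JQ1 were ADARB1, SAT1 and TUBB4B. ADARB1, an RNA-editing adenosine deaminase, stood at 86.8, 73.2, 108, 102, 74.6 and 97.1 CPM with JQ1 and 9.36, 10.9, 9.42, 10.7, 0 and 11.6 CPM with A485, where 1 A485 well had no count. The log2 fold change was 3.21 (standard error 0.23, edgeR adjusted p = 2.65e-23), and A485 did not differ from DMSO by the test (-0.13, edgeR adjusted p = 0.901). SAT1, which acetylates spermidine and spermine for export, read 232, 215, 188, 328, 298 and 319 CPM with JQ1 and 60.8, 57.4, 69.1, 67.9, 84.6 and 38.5 CPM with A485 and differed by 2.00. TUBB4B, a beta-tubulin, differed by 1.80 with 983 to 1369 CPM against 274 to 443 CPM. IRF7, a transcription factor of the interferon system, read 23.2, 41.2, 68.6, 86.0, 58.0 and 46.3 CPM with JQ1 and 7.02, 9.56, 9.42, 7.14, 10.6 and 7.70 CPM with A485, a log2 fold change of 2.43. Of 9 interferon response genes tested, 2 were higher (IRF7, and B2M, whose call was lost with library size or ERCC scaling and without JQ1 well 22) and 1 lower (STAT2, lost in 4 of the alternatives that keep both plates and both column strata), and ISG15 (-0.11) and IFITM1 (-0.061) were not called. Of 15 snoRNA host genes, long RNAs that carry small nucleolar RNAs in their introns, 7 were higher and 2 lower. SNHG1 read 350.3, 351, 603, 496, 447 and 527 CPM with JQ1 and 175, 176, 179, 143, 190.4 and 216 CPM with A485 and differed by 1.26. The list's median of 0.21 became -0.067 on the ERCC scale, with 4 higher and 4 lower, and 6 and 4 were called with library size alone.

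Of 30 ribosome biogenesis genes 2 were higher and 3 lower (median -0.28), but 1 and 10 with library size alone (-0.42) and 0 and 11 on the ERCC scale (-0.51). Of 25 splicing factors 4 were higher and 4 lower (median 0.052), with 2 and 5 by library size (-0.083) and 1 and 5 on the ERCC scale (-0.18). Of 15 Polycomb, trithorax and DNA methylation genes 0 were higher and 1 lower (3 lower under either of these scalings), and of 12 deacetylases 1 and 1 (0 higher under either). Over all genes 9.58% were higher and 9.64% lower. Among splicing factors SRSF2 was higher by 0.71 with 537 to 922 CPM against 372 to 547 CPM, and HNRNPH1 lower by 1.20, with DMSO wells at 139 to 1379 CPM (median 599.6) and a call that was lost without the first-column term.

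Relative to DMSO the compounds contributed unequally. JQ1 was called higher for 933 genes (12.1%) and lower for 894 (11.6%), A485 higher for 124 (1.61%) and lower for 266 (3.46%), all in the same fit and against the same 24 wells. Of the 737 genes higher in JQ1 than in A485, 475 were called against DMSO as higher in JQ1 but not as lower in A485. Another 64 were called as lower in A485 but not as higher in JQ1, 80 as both and 118 as neither. Of the 742 lower genes, 472 were called as lower in JQ1 but not as higher in A485. Another 50 were called as higher in A485 but not as lower in JQ1, 22 as both and 198 as neither. A485 was called on the same side of DMSO as JQ1 for 1 of the 737 and 4 of the 742. These counts use each compound's own test, and since the direct difference shares its wells with both, they describe the sides and are no further support.

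Ranked by the smaller of both changes against DMSO, the top genes with a symbol among those called on opposite sides of it were INSIG1, MIDN, MID1IP1, C15orf39 and FGFR3 upward with JQ1, and CHMP6, ZC3H4, ZNF32, SLC35B4 and ARHGEF39 downward with it. MID1IP1, which acts with acetyl-CoA carboxylase in lipid synthesis, stood at 89.9, 116, 90.3, 90.1, 95.3 and 102 CPM with JQ1 and 25.7, 24.6, 28.3, 32.1, 24.7 and 27.0 CPM with A485, with DMSO at 23.2 to 78.7 CPM (median 47.5). It was 1.07 above DMSO with JQ1 and -0.83 with A485, and the wells of the compounds were far apart. MIDN, which takes proteins to the proteasome, read 43.4, 33.2, 39.7, 24.6, 45.6 and 50.9 CPM and 4.68, 4.10, 12.6, 14.3, 7.05 and 19.3 CPM (DMSO 10.1 to 28.5 CPM (median 19.0)). ZNF32, a zinc finger protein, read 7.75, 11.4, 7.22, 4.10, 16.6 and 4.63 CPM with JQ1 and 39.8, 49.2, 44.0, 35.7, 35.3 and 30.8 CPM with A485 (DMSO 10.7 to 37.7 CPM (median 23.7)), at -1.33 and 0.82 against DMSO. CHMP6, a subunit of the ESCRT-III membrane remodelling complex, read 17.0, 6.87, 10.8, 0, 16.6 and 4.63 CPM and 35.1, 46.4, 31.4, 32.1, 35.3 and 50.1 CPM. ZC3H4, which restrains non-coding transcription, was at 0 in 3 JQ1 wells, with 28.1, 25.9, 15.7, 17.9, 3.53 and 11.6 CPM in A485 wells, so that 1 of these lay inside the JQ1 range. At such levels a few counts set the value, and the fitted fold change is not given as a size.

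**Figure D4:**
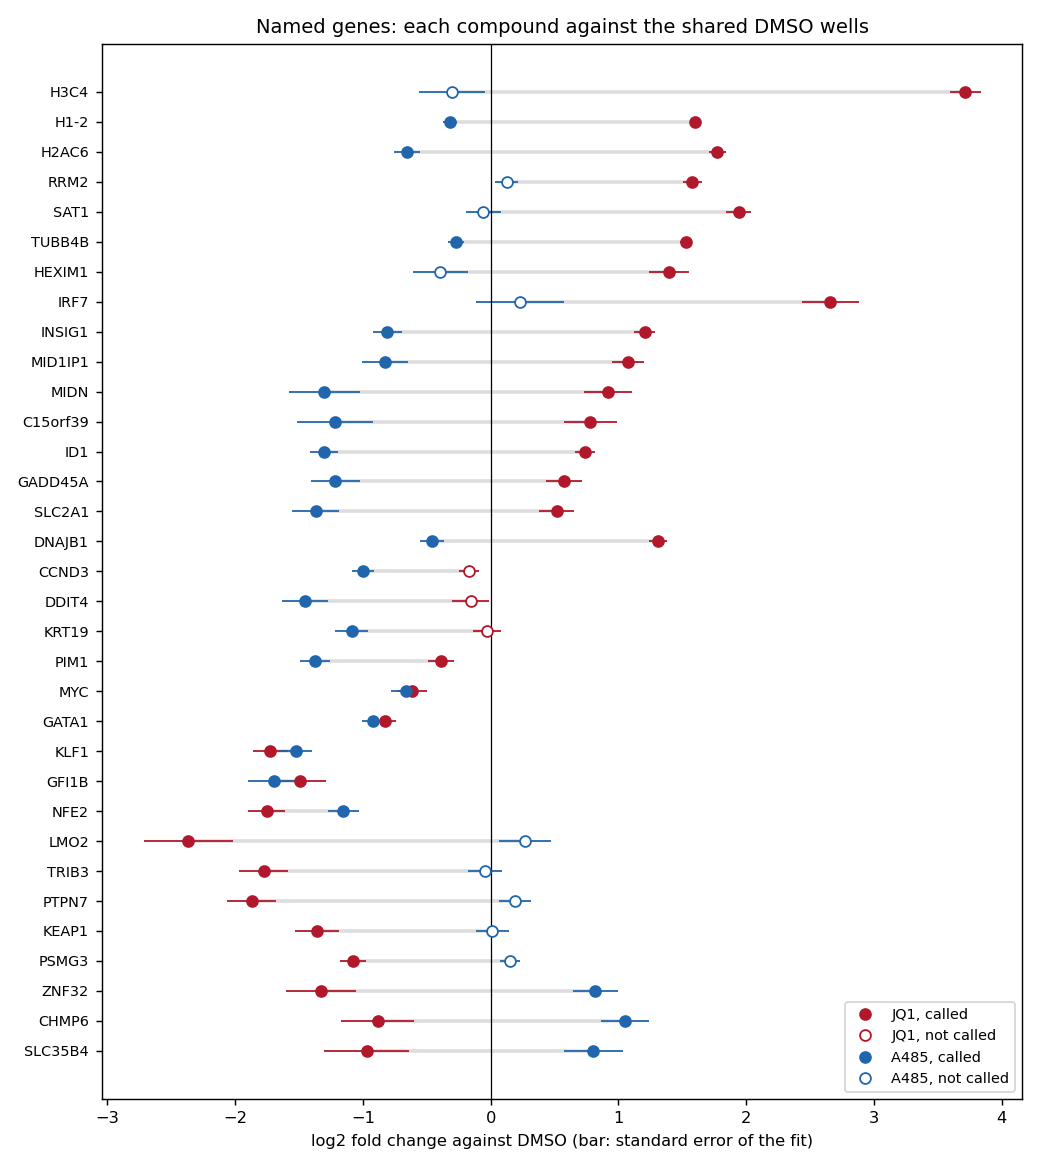
Log2 fold change against DMSO (x axis) of JQ1 (red) and A485 (blue) for 33 named genes, filled where called, with the standard error of the fit as a bar. JQ1 lies at 3.71 for H3C4 and -2.37 for LMO2, while both compounds lie below 0 for MYC, GATA1, KLF1 and GFI1B. The LMO2 value with JQ1 rests on a few counts per well.

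Signs within the column strata and plates describe genes that were called on the same wells, and are no separate support. Of the 737 higher genes 735 had the same sign in the first column and outside it, and 678 in each of the 4 combinations of plate and stratum. For the 742 lower genes the numbers were 740 and 685. The interaction of compound with first column was called for 0 of 8635 genes by edgeR's quasi-likelihood test (445 had an unadjusted p under 0.05, smallest adjusted p 0.778), and that with plate for 0 of 8076 (404, smallest 0.796). Between positions of 1 compound in the first column the calls were 0 of 8635 genes between JQ1 wells 49 and 61 (509 unadjusted) and 0 between A485 wells 25 and 37 (446 unadjusted), by the same test. H3C4 differed by 3.96 in the first column and 4.07 outside it, INSIG1 by 2.23 and 1.89, PTPN7 by -1.89 and -2.22, and HEXIM1 by 2.18 and 1.34.

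Other wells of the plates hold further compounds, which allows contrasts without any JQ1 or A485 well. IBET_762, a BET bromodomain inhibitor, had 4 wells, dBET1, a degrader built on JQ1, 2, SGC_CBP30, a ligand of the CBP and p300 bromodomain, 2, and A241, which the labels do not describe, 2. Pairs of wells are 1 position on both plates, so dBET1, SGC_CBP30, A241 and ethanol have 1 position each and IBET_762 2. The p-values of these contrasts then rest on technical duplicates and on a spread pooled over all groups. Doses are not given for any of them, so the values stand side by side, and the DMSO wells that set the column term are shared. Against DMSO, 664 genes were called for A241 (7.05% of 9419) and 378 for IBET_762 (4.01%). For dBET1 there were 71 (0.754%) and for SGC_CBP30 19 (0.202%), so contrasts with either involve a compound with few calls against DMSO. IBET_762 minus A241 called 373 genes higher (3.96% of 9419) and 273 lower (2.9%). Of the 737 genes higher in JQ1 than in A485, 664 (90.1%) had the same sign, against 52.6% of all genes, and 213 were called higher and 0 lower. The 213 are 28.9% of the 737 and 57.1% of the 373. Of the 742 lower genes 570 (76.8%, against 47.4%) had the same sign, 106 were called lower and 14 higher. With dBET1 minus A241 (4.99% of all genes higher, 4.14% lower) the same signs were 80.7% and 73.6%, with 157 and 110 called alike and 12 and 28 oppositely. IBET_762 minus SGC_CBP30 (1.66% and 0.881%) gave 75.3% and 70.5%, with 92 and 52 called alike and 2 and 25 oppositely, and dBET1 minus SGC_CBP30 (0.0106% and 0.0212%) gave 69.7% and 65.6% with 1 and 0 called alike. A485 and A241 differed for 35 genes (0.372%) and JQ1 and IBET_762 for 228 (2.42%).

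**Figure D5:**
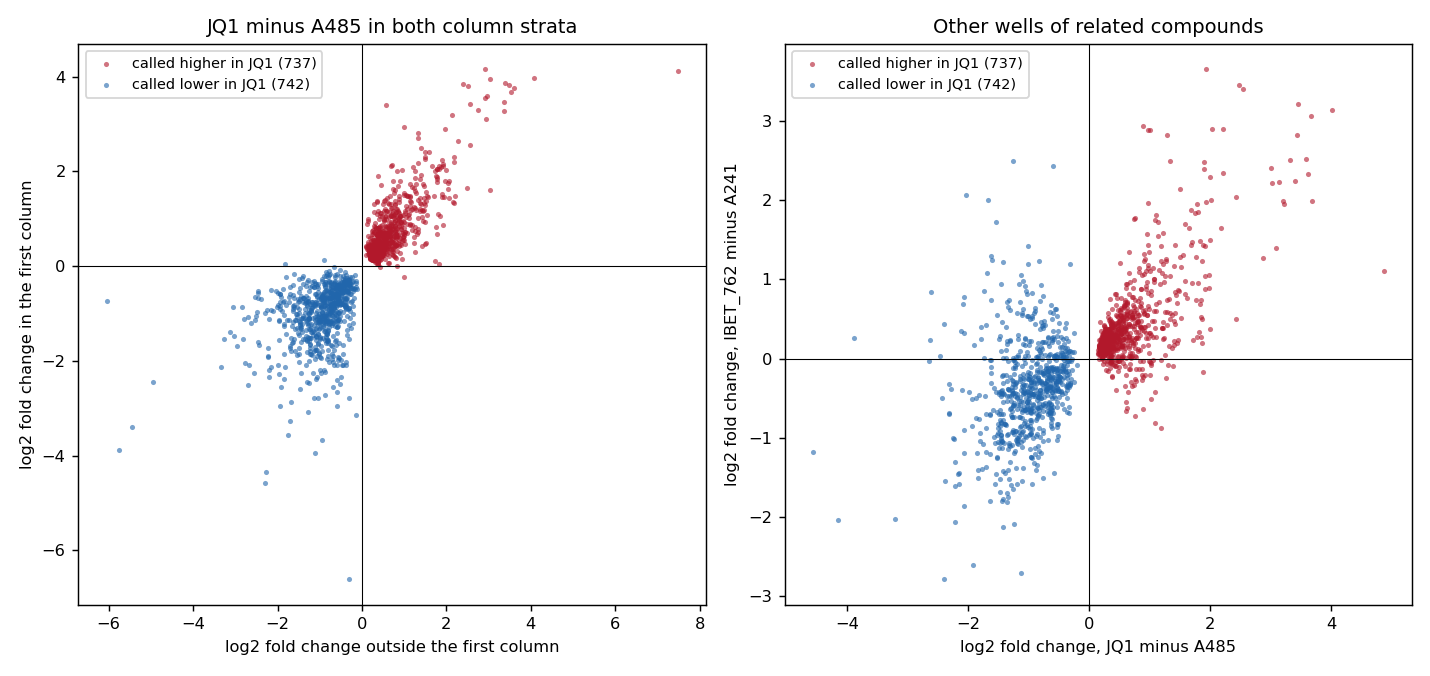
For the 1479 genes called between JQ1 and A485, the left panel sets the log2 fold change in the first column (y axis) against that outside it (x axis), and the right panel sets IBET_762 minus A241 (y axis) against JQ1 minus A485 (x axis). On the left 735 red and 740 blue points share a sign, and on the right 664 and 570 do.

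Histone genes were higher in these contrasts too. IBET_762 minus A241 was called higher for 13 of its 16 genes and lower for 0, with a median of 1.16 against 0.026 over all genes, and IBET_762 minus SGC_CBP30 for 12 (median 1.12). With dBET1 minus A241 5 were called higher, and with dBET1 against DMSO 0 (0.488% of all genes higher), whereas IBET_762 against DMSO gave 13 (2.42%). H3C4 differed by 3.14 and H1-2 by 1.42 between IBET_762 and A241, ID1 by 2.89 and INSIG1 by 2.01. Some genes called between JQ1 and A485 did not pass here, where HEXIM1 was at 0.28 (edgeR adjusted p = 0.718), SAT1 at 0.37 (0.215), LMO2 at -0.028 (0.989) and KEAP1 at 0.0065 (0.996). The erythroid regulators gave other values, with 8 of 16 called higher in IBET_762 than in A241 and a median of 1.39. Between JQ1 and A485 2 were higher and 4 lower, and IBET_762 minus SGC_CBP30 gave 0 higher and 6 lower. Against DMSO the list's median was -1.90 for A241 (0 higher, 9 lower), -0.38 for IBET_762 (1 higher, 5 lower) and 0.11 for SGC_CBP30 (1 higher, 0 lower). The difference between these contrasts was not tested. C1orf56 and LRRC75A, lower in JQ1 than in A485, were higher in IBET_762 than in A241, by 2.07 and 2.00. GATA1 was at 2.60 (edgeR adjusted p = 1.64e-21) and KLF1 at 2.31 (6.37e-10) in that contrast. In ethanol wells, another vehicle, 125 genes (1.33%) differed from DMSO, with KLF1 at 1.08, NFE2 at 1.13, GATA1 at 0.97 and ID1 at 0.84, each called.

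Keratins moved with the compounds as well. In the fibroblast and epithelial marker list KRT8, KRT18 and KRT19 were higher in JQ1 by 0.57, 0.87 and 1.06, and EPCAM was not called (0.12). The list's summed level was 488 to 589 CPM in JQ1 wells, 304 to 397 CPM in A485 wells and 388 to 514 CPM in DMSO wells, and COL3A1, LUM, PDGFRB and CDH1 were at 0. KRT19 stood at 66.6, 93.8, 108, 111, 112 and 116 CPM with JQ1 and 39.8, 39.6, 44.0, 39.3, 45.8 and 80.9 CPM with A485, where 1 A485 well reached the JQ1 range, and lay below DMSO with A485 only (-1.09, against -0.027 for JQ1). The part of other cells in the remaining results was not tested.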

How the data were processed

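The data are 3′ mRNA counts of K562 cells in 192 wells of 2 plates. Wells were barcoded and pooled per plate, per the labels' protocols, and the authors deposited raw, unnormalised values per Ensembl gene and well, classed here as estimated counts since 6 summary lines hold fractions. Those lines were left out, and every gene value is a whole number. Whether the gene values count reads or molecules is not stated, and they were taken as reads. A summary line gives average reads per unique molecular identifier, 1.64 to 2.44 in the JQ1 and A485 wells. The submitters' processing notes list cutadapt 2.1, FastQC 0.11.6 and R 4.0.2, with GRCh37 and hg19 as builds. Which aligner, counter, annotation and strand setting were used is not given in the sources. Wells were grouped by the compound name in the authors' deposited well annotation.

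JQ1 (6), A485 (6) and DMSO (24) wells were fitted with edgeR 4.0.16 under R 4.3.3: filterByExpr, TMM, a term per treatment, plate and first column, the quasi-likelihood test and Benjamini-Hochberg adjustment over 7695 genes. A gene was called at an adjusted p under 0.05. The plate term is the replicate block, since the wells of 1 position carry the same number on both plates. IBET_762, dBET1, SGC_CBP30, A241 and ethanol wells were fitted over 9419 genes, together with the JQ1, A485 and DMSO wells. All fold changes are log2. On simulated counts of 7695 genes with 200 changed, 71% of 2-fold and 97% of 4-fold changes were recovered, with 8 false calls. Wells were drawn independently from the fitted model, so the simulation does not cover errors from shared positions or from the choice of scaling.

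The genes named are, per direction, the 12 largest called differences at a mean log2 CPM of at least 5 with 1 sign in all strata and the 5 smallest p-values, up to 4 called members per list, 5 per direction on opposite sides of DMSO, and a fixed set of regulators. Other list members are named as examples chosen after their values were seen. Calls of these examples were not followed gene by gene through the alternatives. The members and lists were chosen with earlier results of these data known. Alternatives were DESeq2 1.42.0, limma 3.58.1, other scalings and filters, other terms, subsets of wells, and leaving out each position. Promoters come from RefSeq on GRCh38.p14, matched by symbol, whereas the counts use GRCh37. Some genes are not reported here.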

Additional observations from a re-analysis of the deposited data

Results flagged for a closer look

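In 13 of 294 groups of 6 wells tested, the highest or lowest well stood apart from the other 5 by more than Dixon's 95% limit, and chance flags about 1 in 20 groups. Among A485 wells, ADARB1 was at 0 CPM in well 37 of plate 1 (the others 9.36 to 11.6) and KRT19 at 80.9 CPM in well 37 of plate 2 (39.3 to 45.8). TPI1, a glycolytic isomerase, was at 986 CPM in the same well (598 to 718). Well 25 of plate 1 was low for ID3 (0 CPM, others 3.51 to 6.83), JUNB (6.28 CPM, others 27.0 to 53.6), TK1 (138 CPM, others 162 to 173) and TMEM223 (65.9 CPM, others 115 to 143). C1orf56 was at 96.4 CPM in well 25 of plate 2 (69.3 to 77.8) and MCM5 at 112 CPM in well 33 of plate 2 (64.3 to 77.0). Among JQ1 wells, well 61 of plate 2 was low for KLF1 (13.9 CPM, others 33.1 to 51.5), BAD (32.4 CPM, others 53.8 to 66.4) and UROS (32.4 CPM, others 46.9 to 56.1). MT-ND2 was at 9268 CPM in well 49 of plate 2 (6433 to 7068). The KLF1, BAD and UROS values rest on 3, 7 and 7 counts.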

How the results depend on the processing

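The numbers of genes higher and lower in JQ1 than in A485 were 386 and 1169 with library size alone, 208 and 1352 with ERCC counts as the scale, and 152 and 335 when a log2 fold change of at least 1 was required. Without the first-column term they were 437 and 529. In subsets they were 265 and 246 in the first column, 458 and 307 outside it, 363 and 252 on plate 1, and 449 and 338 on plate 2, where fewer wells were fitted. Leaving out 1 position gave 475 to 692 higher and 378 to 664 lower. Without the replicate block, that is with no plate term, 680 and 660 were called. DESeq2 gave 682 and 636. For JQ1 against DMSO, higher and lower genes numbered 396 and 1502 with library size, 162 and 1686 on the ERCC scale, and 484 and 498 without the first-column term. For A485 against DMSO they were 46 and 89 on the ERCC scale, and 141 were lower without the first-column term. On the ERCC scale 115 of the 1479 genes called between the compounds changed sign. The named ones among them were HBG2 (-0.0084), MT-CO1 (-0.091), MT-ND2 (-0.027) and MT-ND3 (-0.072), none called on that scale. The cause of these shifts was not tested. Of 136 named genes called, 24 lost the call on the ERCC scale, 8 with library size and 6 with DESeq2. In every alternative that tested them 76 kept the call, but the count filter removed some genes from some alternatives. Of the 136, 110 were tested with first-column wells only and 113 with the 12 JQ1 and A485 wells alone. In the first column 1 count is worth several CPM, which limits genes at low levels.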
